A study of Mus musculus with 6 samples.

Results

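Interferon-stimulated genes are the genes that cells switch on when interferon binds its receptor. The 33 described here, followed through cultures of mouse embryonic fibroblasts (MEFs), are a list of known interferon-induced genes, matched by symbol. All 33 were among the 55487 genes of the deposited count table, and all 33 were among the 16962 genes that passed the filter on low counts.

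Poly(A) RNA was sequenced from 6 libraries of wild-type MEFs. Passage 6 (P6) cells, labelled senescent, gave 1 library with 20 µM α-amyrin, 1 with 20 µM β-amyrin and 1 with vehicle. Passage 1 (P1) cells, labelled non-senescent, gave the same 3, and both compounds were left on for 3 days. α-Amyrin and β-amyrin are plant triterpenoid isomers with ursane and oleanane skeletons, which differ in the position of a methyl group on the last ring. All groups share the wild-type genotype and growth in DMEM with 10% fetal bovine serum. No condition had a replicate, and the labels name neither the embryos nor whether P6 cells derive from the P1 isolate.

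Type I interferon binds the IFNAR receptor, whose kinases activate STAT2. STAT2 and IRF9 belong to ISGF3, a complex that binds a DNA element called the ISRE in its target promoters. Interferon-γ acts on a different element, the GAS, and induces guanylate-binding proteins and immunity-related GTPases. Fibroblasts respond to interferon and keep a low level of many of these RNAs without added interferon.

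The smallest library, P6 with α-amyrin, held 18798418 counts and the largest, P1 with α-amyrin, 28752332, and mitochondrial genes took 1.55% to 1.81% of counts. The passage labels were checked on the cell-cycle inhibitor gene Cdkn2a, which had 115 to 116 CPM (counts scaled to library size) at P6, against 17.2 to 19.4 CPM at P1. The lamina gene Lmnb1 had 21.9 to 26.2 CPM at P6, against 90.7 to 104 CPM at P1. The proliferation marker Mki67 had 77.7 to 96.1 CPM at P6, against 165 to 169.8 CPM at P1. All 12 fibroblast markers were detected in every library, and summed to 51012 to 56754 CPM at P6, against 36264 to 43618 CPM at P1. In the passage fit described below, 8 of the 12 fell at P6 (29.1% of all genes fell) and 2 rose (30.0% of all genes rose). The 24 macrophage markers summed to 4503 to 6439 CPM at P6, against 62.0 to 454 CPM at P1, and none was at 0 in any library. P1 β-amyrin stood apart with 62.0 CPM, against 404 CPM in P1 α-amyrin and 454 CPM in P1 vehicle. T and NK cell markers summed to at most 0.199 CPM in any library, and B and plasmacytoid dendritic cell markers to at most 0.508 CPM. Endothelial markers summed to 8.59 to 11.6 CPM at P6, against 32.6 to 32.9 CPM at P1, and epithelial markers to 0.465 to 1.03 CPM at P6, against 12.6 to 15.5 CPM at P1. Fewer cells of a type and less RNA per cell cannot be told apart in bulk RNA.

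Promoters are shown for some of the members described below: Ifit1, Ifit3, Ifit3b and Isg15 from the compound comparisons, and Bst2, Oas1a and Oas3 from the passage comparison. Each stretch runs 5′ to 3′ and ends at or shortly before the annotated start (RefSeq, GRCm38.p6). Capitals mark the ISRE core, GAAANNGAA, searched on both strands, and neighbouring cores overlap in several genes.
Ifit1: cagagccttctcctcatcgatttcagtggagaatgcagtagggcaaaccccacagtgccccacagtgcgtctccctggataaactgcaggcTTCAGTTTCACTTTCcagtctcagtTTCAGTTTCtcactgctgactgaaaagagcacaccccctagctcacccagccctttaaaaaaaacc
Ifit3: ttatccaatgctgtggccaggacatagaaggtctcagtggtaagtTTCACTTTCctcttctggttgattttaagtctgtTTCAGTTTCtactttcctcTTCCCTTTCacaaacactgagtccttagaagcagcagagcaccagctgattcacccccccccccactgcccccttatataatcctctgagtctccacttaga
Ifit3b: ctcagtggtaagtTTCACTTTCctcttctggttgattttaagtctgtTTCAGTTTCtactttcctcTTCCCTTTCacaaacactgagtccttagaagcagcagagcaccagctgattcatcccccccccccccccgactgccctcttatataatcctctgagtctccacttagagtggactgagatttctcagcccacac
Isg15: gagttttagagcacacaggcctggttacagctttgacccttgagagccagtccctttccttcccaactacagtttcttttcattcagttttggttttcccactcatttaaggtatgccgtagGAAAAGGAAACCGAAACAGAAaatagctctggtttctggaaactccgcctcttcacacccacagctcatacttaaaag
Bst2: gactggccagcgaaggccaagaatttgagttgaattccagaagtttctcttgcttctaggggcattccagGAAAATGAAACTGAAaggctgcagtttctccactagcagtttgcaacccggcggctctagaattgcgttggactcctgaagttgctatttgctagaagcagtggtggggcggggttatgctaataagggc
Oas1a: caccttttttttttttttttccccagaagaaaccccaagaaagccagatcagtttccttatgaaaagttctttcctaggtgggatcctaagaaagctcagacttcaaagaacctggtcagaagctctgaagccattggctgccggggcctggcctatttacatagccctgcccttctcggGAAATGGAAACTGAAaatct
Oas3: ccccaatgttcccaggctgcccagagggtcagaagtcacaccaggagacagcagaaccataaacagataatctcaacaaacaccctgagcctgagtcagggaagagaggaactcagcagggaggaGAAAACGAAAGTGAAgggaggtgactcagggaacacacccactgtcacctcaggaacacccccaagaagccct

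These stretches lie at chr19:34640689-34640870 (plus strand), chr19:34583329-34583528 (plus strand), chr19:34607757-34607956 (plus strand), chr4:156200819-156201018 (minus strand), chr8:71537473-71537672 (minus strand), chr5:120907526-120907725 (minus strand) and chr5:120777662-120777859 (minus strand), in the order printed. Ifit3 and Ifit3b hold the same 3 cores in the same order, at -155, -121, -102 from the start in Ifit3 and at -187, -153, -134 in Ifit3b. In Isg15 the 3 cores overlap in 1 run, and in Bst2 the first core overlaps a GAS core. Over windows from 250 bases before to 50 bases after the start, 25 of the 33 members had a RefSeq promoter. The ISRE core lay in 18 of those 25 genes (72%), against 9.76% of all 27025 genes in that table. The GAS core, TTCNNNGAA, lay in 8 of the 25 (32%), against 9.55% of all genes. Oasl2, Irf7, Xaf1 and Irf9 had neither set of letters in these windows. Every printed promoter holds the ISRE core, so the printed genes do not stand for the list. Oasl2, for example, had the smallest edgeR adjusted p of the members for α-amyrin against β-amyrin. A match describes letters, and binding was not measured.

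Levels of different genes were compared per length, in the authors' FPKM (fragments per kilobase and depth). Ifi27, an interferon-induced membrane protein gene, averaged 30.02 FPKM over the 6 libraries. Bst2, which encodes tetherin, a protein that holds budding virions at the cell surface, averaged 27.8 FPKM. Irgm1, an immunity-related GTPase gene, averaged 8.29 FPKM, and Rsad2, the gene of the antiviral enzyme viperin, was lowest at 0.194 FPKM. Most members were thus expressed at a low level. The 33 genes together took 0.0246% to 0.0426% of a library's counts. Their median CPM was 4.99 in α-amyrin, 4.14 in β-amyrin and 5.71 in vehicle at P6, and 6.32 in α-amyrin, 2.17 in β-amyrin and 3.76 in vehicle at P1.

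Of the 9 library pairs compared, α-amyrin over β-amyrin at P1 had the largest median ratio of the members. There, 31 of the 33 members were highest with α-amyrin, intermediate with vehicle and lowest with β-amyrin, an order that 16.1% of all genes tested had. Oas3, highest with vehicle, and Igtp, lowest with vehicle, were the exceptions. P1 α-amyrin was the highest of the 6 libraries for 18 members (15.3% of all genes), and P1 β-amyrin the lowest for 28 members (20.8% of all genes). At P6 the most frequent order, vehicle above α-amyrin above β-amyrin, held for 15 members (16.4% of all genes). Each order rests on single libraries.

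**Figure D1:**
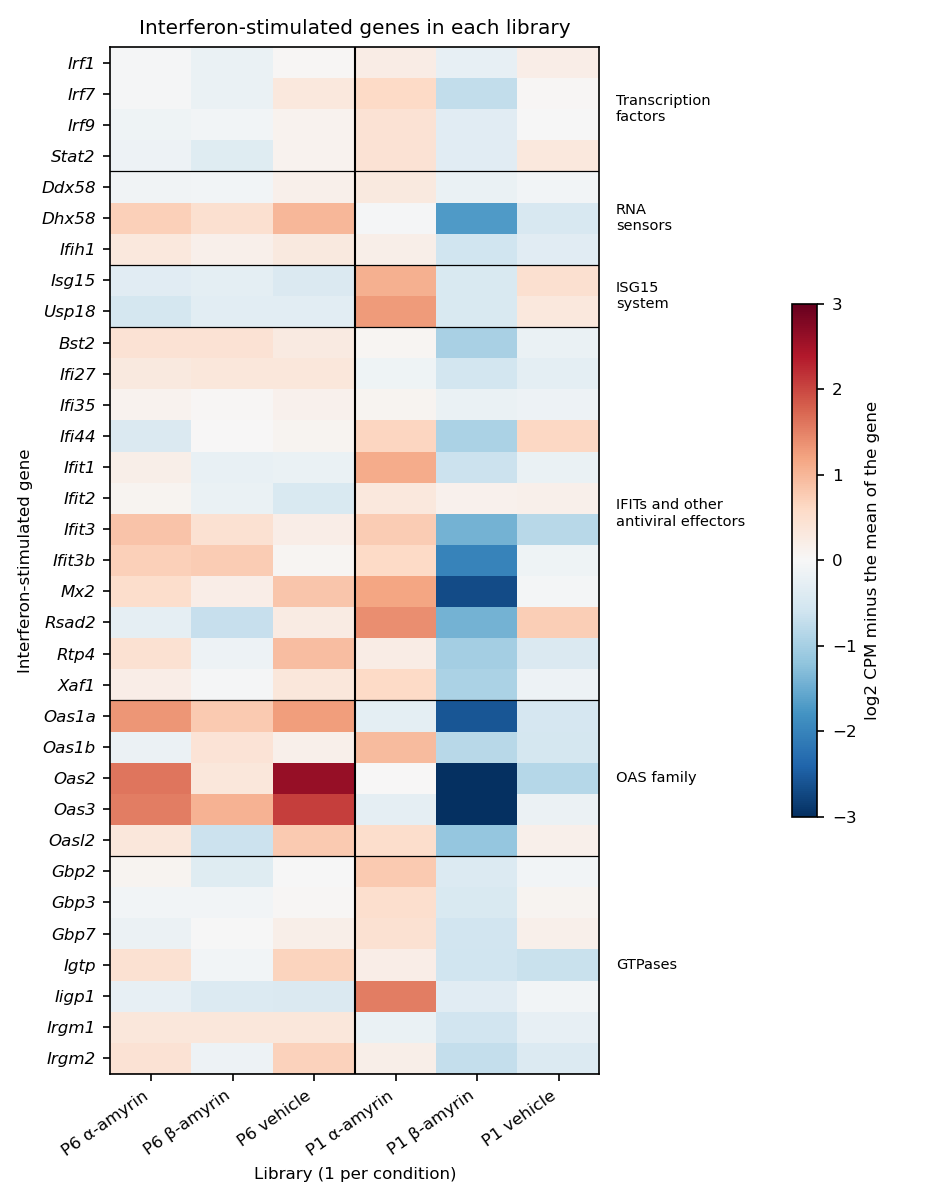
Each row is 1 of the 33 interferon-stimulated genes, grouped by role, and each column 1 library, with colour for log2 CPM minus that gene's mean over the 6 libraries and values beyond 3 drawn at the end of the scale. The P1 β-amyrin column is the lowest for 28 of the 33 genes, and the P1 α-amyrin column is the highest for 18.

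At P1 all 33 members had more CPM with α-amyrin than with β-amyrin, against 50.7% of all genes. The median log2 ratio of the members was 1.31, a fold of 2.49, and 0.78 over the members with a mean CPM of at least 5. Median log2 ratios and the size rule use a prior count of 2, whereas ratios of single genes with counting intervals use none. For all 33 the exact 95% counting interval of the ratio lay above 1, and such intervals cover counting error only. The share of all genes with such an interval was not taken at either passage, so these interval counts have no background. At least 2-fold higher, with at least 5 CPM in 1 of the libraries, were 9 members (0.731% of all genes), and none was 2-fold lower (0.0236% of all genes). At P6, 22 members were higher with α-amyrin and 11 lower, with a median log2 ratio of 0.16 (50.8% of all genes were higher). There 11 counting intervals lay above 1 and none below, and no member met the size rule (0.383% of all genes were 2-fold higher).

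The IFIT proteins bind viral RNA and block its translation, and their 4 genes in the list lie together on chromosome 19 (mm10, 34550694 to 34650009). Ifit1 had 6.32 CPM with α-amyrin, 4.81 CPM with β-amyrin and 4.87 CPM with vehicle at P6, and 12.1 CPM with α-amyrin, 3.58 CPM with β-amyrin and 4.87 CPM with vehicle at P1. P1 α-amyrin stood above the other 5 libraries, which overlapped between passages. The ratio of α-amyrin to β-amyrin was 1.31 (1.01 to 1.70) at P6 and 3.37 (2.67 to 4.30) at P1, with counting intervals in parentheses here and below. Ifit3 had 8.34 CPM with α-amyrin, 6.33 CPM with β-amyrin and 5.29 CPM with vehicle at P6, and 7.82 CPM with α-amyrin, 1.73 CPM with β-amyrin and 2.61 CPM with vehicle at P1. P1 α-amyrin lay among the P6 libraries and the other P1 libraries lay below them. Its ratio of α-amyrin to β-amyrin was 1.32 (1.05 to 1.65) at P6 and 4.52 (3.25 to 6.42) at P1.

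Ifit3b, a near copy of Ifit3, had 2.39 CPM with α-amyrin, 2.47 CPM with β-amyrin and 1.52 CPM with vehicle at P6, and 2.21 CPM with α-amyrin, 0.362 CPM with β-amyrin and 1.34 CPM with vehicle at P1. P1 β-amyrin was the low library, at 9 reads. The coding sequences of the pair matched at 99.1% of aligned bases, and 68.5% of the 50-base stretches of Ifit3 occur in Ifit3b, so the split of reads between them is uncertain. Ifit2, in the same cluster, had 18.2 CPM with α-amyrin, 15.0 CPM with β-amyrin and 12.6 CPM with vehicle at P6, and 21.3 CPM with α-amyrin, 18.7 CPM with β-amyrin and 19.3 CPM with vehicle at P1. It was the 1 member whose treatments spread more at P6 than at P1, and its P6 libraries all lay below its P1 libraries.

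ISG15 is a ubiquitin-like protein attached to other proteins, and USP18 removes it and damps the interferon receptor. Isg15 had 3.88 CPM with α-amyrin, 3.98 CPM with β-amyrin and 3.64 CPM with vehicle at P6, and 10.2 CPM with α-amyrin, 3.58 CPM with β-amyrin and 6.83 CPM with vehicle at P1. Usp18 had 2.07 CPM with α-amyrin, 2.39 CPM with β-amyrin and 2.41 CPM with vehicle at P6, and 7.27 CPM with α-amyrin, 2.17 CPM with β-amyrin and 3.72 CPM with vehicle at P1. In both genes P1 α-amyrin was the highest library, and P1 β-amyrin lay close to the P6 values. The ratio of α-amyrin to β-amyrin for Isg15 was 0.97 (0.71 to 1.33) at P6 and 2.86 (2.25 to 3.66) at P1. For Usp18 it was 0.87 (0.56 to 1.32) at P6 and 3.35 (2.47 to 4.6) at P1, so the counting interval included 1 at P6 in both genes.

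**Figure D2:**
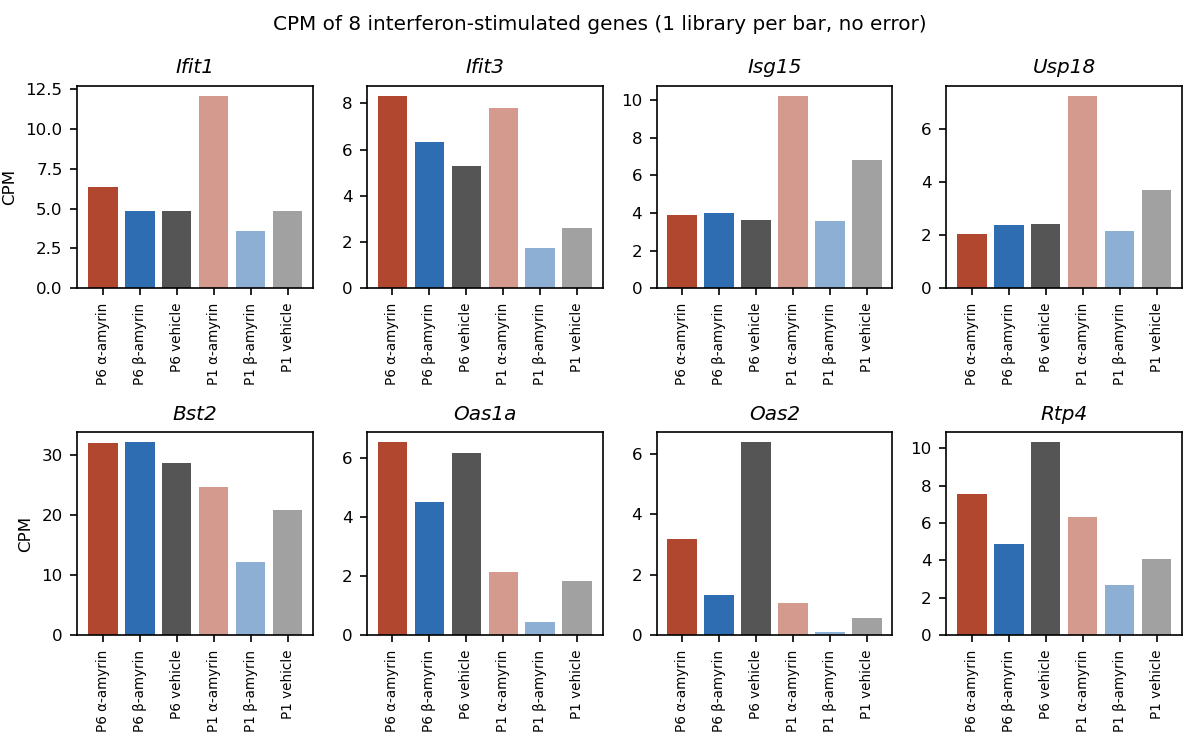
Bars give CPM of 8 members in the 6 libraries on linear axes from 0, with red for α-amyrin, blue for β-amyrin, grey for vehicle and paler bars for P1; each bar is 1 library and has no error bar. Ifit1, Isg15 and Usp18 are highest in P1 α-amyrin, whereas Oas1a and Oas2 are higher in every P6 library than in every P1 library.

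The oligoadenylate synthetases sense double-stranded RNA and make a short-lived nucleotide signal. Oas2 had 3.19 CPM with α-amyrin, 1.31 CPM with β-amyrin and 6.39 CPM with vehicle at P6, and 1.05 CPM with α-amyrin, 0.0804 CPM with β-amyrin and 0.575 CPM with vehicle at P1. The P1 β-amyrin value rests on 2 reads, and the α-amyrin to β-amyrin ratio was 2.43 (1.56 to 3.83) at P6 and 13.1 (3.33 to 113) at P1. Oas2 had the widest gap of the list between the compounds at P6. Oasl2, an OAS-like gene, had 4.99 CPM with α-amyrin, 2.51 CPM with β-amyrin and 6.81 CPM with vehicle at P6, and 5.71 CPM with α-amyrin, 1.77 CPM with β-amyrin and 4.37 CPM with vehicle at P1. It was lowest with β-amyrin at both passages, at ratios of α-amyrin to β-amyrin of 1.99 (1.43 to 2.78) at P6 and 3.23 (2.30 to 4.61) at P1. Oas3 and Mx2 had 1 and 2 reads in P1 β-amyrin, and their P1 ratios of 15.2 (2.40 to 634) and 14.8 (3.80 to 127) are known only within those wide intervals.

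Rtp4, an interferon-induced antiviral gene, had 7.54 CPM with α-amyrin, 4.89 CPM with β-amyrin and 10.3 CPM with vehicle at P6, and 6.32 CPM with α-amyrin, 2.69 CPM with β-amyrin and 4.07 CPM with vehicle at P1. It was lowest with β-amyrin at both passages. Of its annotated exon bases, 13.9% are shared with another gene on the same strand. Xaf1, a pro-apoptotic gene, had 4.30 CPM with α-amyrin, 3.66 CPM with β-amyrin and 4.78 CPM with vehicle at P6, and 5.71 CPM with α-amyrin, 1.93 CPM with β-amyrin and 3.38 CPM with vehicle at P1. Xaf1 too was lowest with β-amyrin at both passages, and its ratio of α-amyrin to β-amyrin was 1.17 (0.86 to 1.6) at P6 and 2.96 (2.13 to 4.17) at P1.

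**Figure D3:**
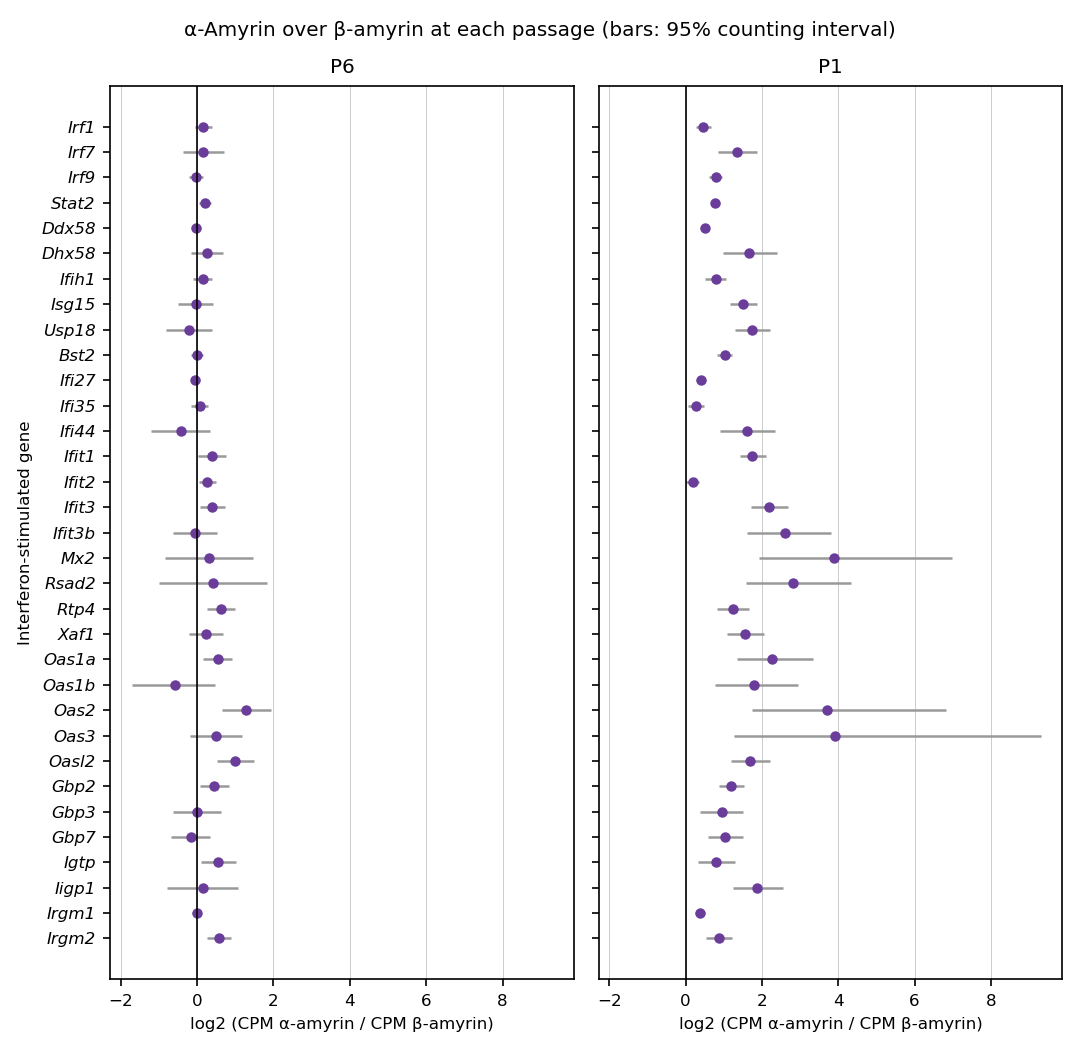
Points give the log2 ratio of CPM, α-amyrin over β-amyrin, for the 33 members at P6 (left) and P1 (right), and bars the exact 95% counting interval. At P1 all 33 points and intervals lie above 0, whereas at P6 22 points and 11 intervals do. For intervals the share of all genes was not taken.

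STAT2, IRF9, IRF7 and IRF1 are the transcription factors of the list. Stat2 had 36.0 CPM with α-amyrin, 31.2 CPM with β-amyrin and 43.2 CPM with vehicle at P6, and 54.3 CPM with α-amyrin, 31.7 CPM with β-amyrin and 50.0 CPM with vehicle at P1. Irf9, its DNA-binding partner, had 23.04 CPM with α-amyrin, 23.6 CPM with β-amyrin and 27.2 CPM with vehicle at P6, and 33.9 CPM with α-amyrin, 19.7 CPM with β-amyrin and 25.0 CPM with vehicle at P1. Both genes were highest with vehicle at P6 and with α-amyrin at P1. Irf7, which amplifies interferon production, had 2.97 CPM with α-amyrin, 2.67 CPM with β-amyrin and 3.81 CPM with vehicle at P6, and 4.62 CPM with α-amyrin, 1.81 CPM with β-amyrin and 3.11 CPM with vehicle at P1. Irf1, an early factor of the interferon-γ response, had 16.9 CPM with α-amyrin, 15.1 CPM with β-amyrin and 17.5 CPM with vehicle at P6, and 20.2 CPM with α-amyrin, 14.6 CPM with β-amyrin and 19.7 CPM with vehicle at P1. All 4 factors were lowest with β-amyrin at P1. At P1 the median log2 ratio of α-amyrin to β-amyrin was 0.78 for the 4 factors, 0.78 for the 3 RNA sensors and 0.91 for the 7 GTPases. It was 1.52 for the 12 IFIT and other antiviral effectors, 1.6 for Isg15 and Usp18 and 2.09 for the 5 OAS genes. The groups were not tested against each other, and they differ in depth of counts. In P1 β-amyrin the OAS genes had 1 (Oas3) to 44 (Oasl2) reads and the factors 45 (Irf7) to 788 (Stat2). The part of low counts in these medians was not tested. Ifi35, Ifi44, Rsad2, Ifi27, the sensors Ddx58 and Ifih1 and the GTPases Gbp2, Gbp3, Gbp7, Irgm1, Irgm2 and Iigp1 had ratios of α-amyrin to β-amyrin of 0.74 (Ifi44) to 1.49 (Irgm2) at P6 and 1.21 (Ifi35) to 7.04 (Rsad2) at P1.

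Set against vehicle at P1, 32 of 33 members were higher with α-amyrin (median log2 ratio 0.51), against 49.3% of all genes. With β-amyrin 32 of 33 were lower than vehicle (median -0.58), and 50.2% of all genes were higher. Over members with a mean CPM of at least 5 these medians were 0.40 with α-amyrin and -0.34 with β-amyrin. The pairs share the P1 vehicle library. Ifit1, at 2.48 (2.02 to 3.06), and Ifit3, at 3.00 (2.28 to 3.99), were at least 2-fold above vehicle with α-amyrin (0.206% of all genes). With β-amyrin no member met the size rule at P1 (0.590% of all genes were 2-fold lower). At P6, 22 of 33 members lay below vehicle with α-amyrin (median -0.20) and 25 with β-amyrin (median -0.20). With a mean CPM of at least 5 the α-amyrin median was -0.0085. The share of all genes above vehicle was 53.4% for α-amyrin and 51.7% for β-amyrin. Oas2, Oasl2 and Rtp4 were at least 2-fold lower with β-amyrin than with vehicle at P6 (0.454% of all genes). Their ratios were 0.21 (0.14 to 0.30) for Oas2, 0.37 (0.27 to 0.50) for Oasl2 and 0.47 (0.38 to 0.59) for Rtp4.

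The spread over the 3 treatments was wider at P1 than at P6 for 32 of the 33 members, or 97.0%, against 53.2% of all genes. Its median in log2 CPM was 0.47 at P6 and 1.31 at P1 for the members, against 0.22 at P6 and 0.23 at P1 for all genes. At P1, 31 members were highest with α-amyrin and lowest with β-amyrin. For these the P1 spread is the α-amyrin to β-amyrin ratio again, and no separate result. Bst2 had 32.0 CPM with α-amyrin, 32.2 CPM with β-amyrin and 28.6 CPM with vehicle at P6, and 24.8 CPM with α-amyrin, 12.2 CPM with β-amyrin and 20.9 CPM with vehicle at P1. Its log2 range was 0.17 at P6 and 1.02 at P1.

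Over both passages, the compounds were tested with edgeR's quasi-likelihood test in an additive fit of passage and treatment. For α-amyrin against β-amyrin no member passed an adjusted p of 0.05 (0.0590% of all genes did). All 33 fold changes were above 0, with a median log2 value of 0.80, and 19 had an unadjusted p below 0.05 (9.21% of all genes). The contrast combines both passages. Their median log2 ratios of single libraries were 0.16 at P6, where 11 members were lower, and 1.31 at P1, where none was. The shared sign is thus no result separate from those ratios. The smallest edgeR adjusted p was 0.194, for Oasl2, at a log2 fold change of 1.36 ± 0.25 (SE) and a 95% interval of 0.77 to 1.96. The interval was 0.41 to 1.83 for Ifit1, 0.20 to 0.81 for Stat2 and -0.09 to 1.00 for Bst2. DESeq2 called Oasl2 alone. Leaving out a library of either compound leaves 1 library of it in this contrast, so calls from such fits are not given.

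For α-amyrin against vehicle edgeR called no member (0.0295% of all genes were called), and DESeq2 none. Unadjusted p was below 0.05 for 5 members, all higher (11.8% of all genes). The smallest edgeR adjusted p was 0.321, for Ifit3, at a log2 fold change of 1.15 ± 0.36 (SE). Without the P6 β-amyrin library, or without the P1 β-amyrin library, edgeR called 2 members, Ifit1 and Ifit3, where 367 of 17323 and 332 of 17376 genes were called. For β-amyrin against vehicle edgeR called no member (0.00590% of all genes were called), and DESeq2 called Oasl2. Unadjusted p was below 0.05 for 9 members, all lower (10.3% of all genes). Oasl2 again had the smallest edgeR adjusted p, 0.204, at -1.37 ± 0.25 on the log2 scale (SE). Fits without a β-amyrin library leave 1 library of that compound, and their calls for β-amyrin are not given. These 3 contrasts share libraries.

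Whether a compound's response differed between passages was tested by interaction fits, which pool the other 2 libraries of a passage as 1 group, an assumption. For α-amyrin, 32 of 33 terms were below 0 (median log2 value -0.88), none passed the adjusted p in edgeR (0.00% of all genes did) and 7 had an unadjusted p below 0.05 (2.56% of all genes). For β-amyrin, 31 of 33 terms were above 0 (median 0.87), none passed in edgeR (0.542% of all genes did) and 8 had an unadjusted p below 0.05 (3.83% of all genes). The smallest edgeR adjusted p was 0.193, for Bst2, at a log2 difference of 1.00 ± 0.21 (SE). With both compounds pooled, edgeR called no member (0.00% of all genes), and none had an unadjusted p below 0.05 (2.66% of all genes). DESeq2 called no member in any of the 3 interactions. These 3 fits use the same 6 libraries, pooled in different ways, so their terms are not separate results.

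Macrophage markers moved with some of these differences, and their part in the result was not tested. All 24 were lower with β-amyrin than with vehicle at P1 (median log2 ratio -3.45), where 50.2% of all genes were higher. In the β-amyrin interaction 19 of the 24 passed the adjusted p in edgeR (0.542% of all genes did). With α-amyrin at P1, 13 of the 24 were above vehicle and 11 below (median 0.01). Of the 33 interferon-stimulated genes 32 were above it, and of all genes 49.3%. At P6 the median log2 ratio of the macrophage markers to vehicle was 0.16 with α-amyrin and -0.56 with β-amyrin. C1qa, a complement gene of macrophages, had 288 CPM with α-amyrin, 154 CPM with β-amyrin and 250.3 CPM with vehicle at P6, and 11.8 CPM with α-amyrin, 0.885 CPM with β-amyrin and 17.6 CPM with vehicle at P1.

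**Figure D4:**
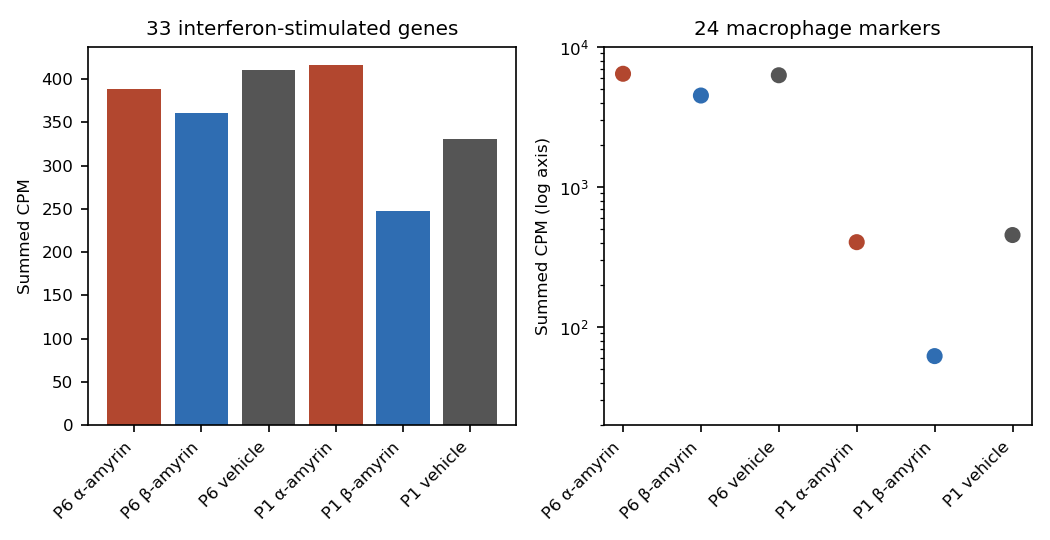
The left panel gives the summed CPM of the 33 interferon-stimulated genes in each library on a linear axis, and the right panel that of 24 macrophage markers on a log axis. The members span 248 to 417 CPM, with both ends at P1, whereas the macrophage sums are 4503 CPM or more at P6 and 454 CPM or less at P1.

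The other comparison set P6 against P1 over 3 libraries each. In edgeR 12 of the 33 members rose at P6 (30.0% of all genes rose), 2 fell (29.1% of all genes fell) and 19 were not called. The share that rose was near that of all genes. Unadjusted p was below 0.05 for 16 members (63.6% of all genes). The median log2 fold change was 0.19, against 0.00 for all genes. The P6 libraries all lay above the P1 libraries for 7 members (32.5% of all genes) and all below for 1, Ifit2 (32.2% of all genes). Separate cultures are not stated, and no condition has a replicate. The p-values therefore rest on how far these libraries depart from additive passage and treatment terms. A compound response that differs between passages enters that error. An isolate effect and a passage effect cannot be told apart.

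The OAS cluster on chromosome 5 (mm10, 120730333 to 120907521) had the largest fold changes of the list. Oas2 rose by 2.64 ± 0.41 on the log2 scale (SE), with an edgeR adjusted p of 0.00142. Oas3, the long member of the family, had 2.12 CPM with α-amyrin, 1.51 CPM with β-amyrin and 3.13 CPM with vehicle at P6, and 0.612 CPM with α-amyrin, 0.0402 CPM with β-amyrin and 0.652 CPM with vehicle at P1. It rose by 2.42 ± 0.42 (SE, log2), with an edgeR adjusted p of 0.00239. Oas1a had 6.53 CPM with α-amyrin, 4.50 CPM with β-amyrin and 6.18 CPM with vehicle at P6, and 2.14 CPM with α-amyrin, 0.442 CPM with β-amyrin and 1.84 CPM with vehicle at P1. Its log2 rise was 2.02 ± 0.29 (SE), with an edgeR adjusted p of 0.000928, and the passages did not overlap in these 3 genes. Oas1b, annotated as a polymorphic pseudogene, had 0.637 CPM with α-amyrin, 0.955 CPM with β-amyrin and 0.804 CPM with vehicle at P6, and 1.39 CPM with α-amyrin, 0.402 CPM with β-amyrin and 0.499 CPM with vehicle at P1. It was not called, nor was Oasl2, which lies outside the cluster. The coding sequences of Oas1a and Oas1b matched at 77.7% of aligned bases, and 1.24% of the 50-base stretches of Oas1a occur in Oas1b.

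Of the 3 RNA sensors, Dhx58 and Ifih1 rose (30.0% of all genes rose) and Ddx58 was not called. Dhx58, which encodes LGP2, had 4.94 CPM with α-amyrin, 4.14 CPM with β-amyrin and 5.97 CPM with vehicle at P6, and 2.92 CPM with α-amyrin, 0.925 CPM with β-amyrin and 2.15 CPM with vehicle at P1. Its passages did not overlap, at a log2 fold change of 1.38 ± 0.26 (SE, edgeR adjusted p = 0.00318). Ifih1, which encodes MDA5, averaged 12.2 ± 0.658 CPM at P6 and 8.86 ± 2.52 CPM at P1 (SD, n = 3 libraries each), and its passages overlapped. The Ifih1 call was lost in 7 of 12 alternatives. Ddx58, which encodes RIG-I, averaged 40.6 ± 3.99 CPM at P6 and 41.4 ± 7.62 CPM at P1 (SD, n = 3 libraries each), a difference within that spread.

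Of the 12 IFIT and other antiviral effectors 4 rose, Ifi27, Bst2, Rtp4 and Ifit3 (30.0% of all genes rose), and Ifit2 fell (29.1% of all genes fell). Ifi27 had 50.7 CPM with α-amyrin, 52.3 CPM with β-amyrin and 52.6 CPM with vehicle at P6, and 37.6 CPM with α-amyrin, 28.3 CPM with β-amyrin and 33.8 CPM with vehicle at P1. Its passages did not overlap, and its log2 fold change was 0.65 ± 0.09 (SE, edgeR adjusted p = 0.000732). Bst2 rose by 0.72 ± 0.19 and Rtp4 by 0.81 ± 0.21 on the log2 scale (SE). Ifit3 rose by 0.88 ± 0.30 (SE, log2, edgeR adjusted p = 0.0412), although P1 α-amyrin lay above 2 of the 3 P6 libraries. The Ifit3 call was lost in 7 of 12 alternatives and the Rtp4 call in 3. Ifit2 had a log2 fold change of -0.385 (edgeR adjusted p = 0.0113), and its call was lost without the P6 vehicle library, at an edgeR adjusted p of 0.0522. Ifit1, Ifit3b, Ifi35, Ifi44, Mx2, Rsad2 and Xaf1 were not called, with log2 fold changes between -0.70 for Rsad2 and 0.79 for Ifit3b.

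Immunity-related GTPases attack the vacuoles of intracellular parasites, and 3 of the 7 GTPase members rose (30.0% of all genes rose). Irgm1 had 56.8 CPM with α-amyrin, 57.1 CPM with β-amyrin and 56.5 CPM with vehicle at P6, and 38.9 CPM with α-amyrin, 29.9 CPM with β-amyrin and 37.9 CPM with vehicle at P1. It had the smallest edgeR adjusted p of the list, 0.000484, at a log2 fold change of 0.68 ± 0.09 (SE). Igtp had 4.51 CPM with α-amyrin, 3.06 CPM with β-amyrin and 5.20 CPM with vehicle at P6, and 3.77 CPM with α-amyrin, 2.17 CPM with β-amyrin and 2.07 CPM with vehicle at P1. Igtp rose by 0.69 ± 0.23 and Irgm2 by 0.63 ± 0.17 on the log2 scale (SE), and the Igtp call was lost in 6 of 12 alternatives, DESeq2 among them, and the Irgm2 call in 4. These neighbours on chromosome 11 share 162 exon bases on the same strand, which leaves their split of reads uncertain. Gbp2, Gbp3, Gbp7 and Iigp1 were not called, with log2 fold changes between -0.82 and -0.03.

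None of the 4 transcription factors was called for passage, with log2 fold changes between -0.28 for Stat2 and 0.04 for Irf7. Isg15 fell, at a log2 fold change of -0.75 ± 0.27 (SE, edgeR adjusted p = 0.0480), though P1 β-amyrin lay below all 3 P6 libraries. That call was lost in 7 of 12 alternatives. Usp18, at -0.80 ± 0.34 (SE), was not called.

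**Figure D5:**
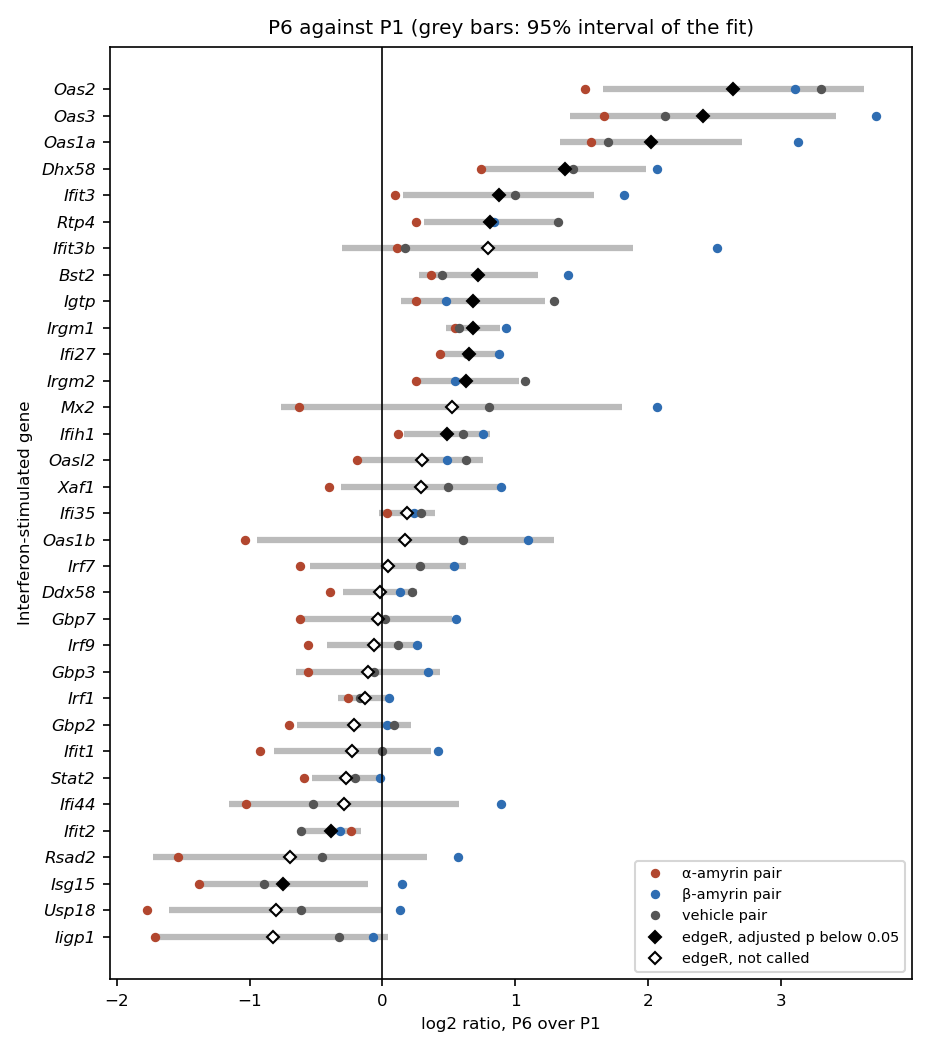
Diamonds give the edgeR log2 fold change of P6 over P1 for each of the 33 members (filled where the adjusted p was below 0.05), grey bars its 95% interval, and coloured points the log2 ratio of single libraries within each treatment (prior count of 2). The largest fitted changes are those of Oas2, Oas3 and Oas1a, at 2.64, 2.42 and 2.02.

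Within a treatment, the passage difference was measured on single libraries. Between the α-amyrin libraries 14 members were higher at P6 and 19 lower (median log2 ratio -0.26, or -0.10 with a mean CPM of at least 5; 50.5% of all genes were higher). By the size rule Oas1a was higher (5.72% of all genes) and Isg15 and Usp18 were lower (3.97% of all genes). Between the β-amyrin libraries 30 members were higher (median 0.55, or 0.34 with a mean CPM of at least 5; 50.0% of all genes), and Bst2 and Ifit3 met the size rule (5.68% of all genes). Between the vehicle libraries 23 were higher (median 0.29; 50.1% of all genes), and 6 met the size rule (5.60% of all genes), led by Oas2 at 11.1 (6.52 to 20.3).

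Bst2, Dhx58, Ifi27, Irgm1, Oas1a, Oas2 and Oas3 were called for passage in all 12 alternatives run. The share of all called genes that kept their call throughout was not taken, so this is not particular to the list. Leaving out P6 vehicle left 7 members called (8534 of 17308 genes), leaving out P1 vehicle 8 (8503 of 17341 genes), and leaving out P1 β-amyrin 17 (9213 of 17376 genes), of which 12 were among the 14. The 24 macrophage markers all rose at P6 (median log2 fold change 4.09), where 30.0% of all genes rose. The part of these markers in the passage differences was not tested.

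Upstream of these genes, interferon RNA was at or near 0. Of 10 interferon genes listed, 8, with Ifnb1 among them, had no read in any library, and Ifne and Ifnk had 1 read each in P6 α-amyrin. The counts of other lists here stand against 30.0% of all genes that rose at P6 and 29.1% that fell. All 6 receptor genes tested rose at P6 in edgeR, among them Ifnar1 by 0.23 ± 0.05 and Ifnar2 by 0.33 ± 0.08 on the log2 scale (SE). Of 13 JAK-STAT and feedback genes 8 rose and 3 fell, and Irf8, a factor of macrophages, rose by 3.47 ± 0.38 (SE, log2). Of 18 nucleic acid sensors and adaptors 12 rose and 1 fell, with Ikbke, which encodes a kinase of the interferon-inducing pathway, at 1.71 ± 0.09 (SE, log2). Of 13 tested genes of MHC class I presentation 10 rose, with H2-K1 at 1.61 ± 0.07 (SE, log2). All 24 macrophage markers rose in the same libraries, and their part in these counts was not tested.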

How the data were processed

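RNA was poly(A)-selected and made into directional libraries, per the labels' protocols. The submitters' processing notes name mm10, featureCounts 1.6.3, SAMtools 1.9, HISAT2 2.1.0, Trimmomatic 0.38 and FastQC 0.11.7. The deposited gene table holds raw counts, used in each main test, and FPKM by the authors, used for levels between genes and for alternatives. Strand use in counting and the tool behind FPKM were not given in the sources used here.

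Counts were scaled by TMM to CPM, and 16962 genes passed filterByExpr with passage as the group. edgeR 4.0.16 in R 4.3.3 fitted passage and treatment as additive terms (glmQLFit, glmQLFTest), with 2 residual degrees of freedom, and a Benjamini-Hochberg adjusted p below 0.05 was a call. Interaction fits pooled 2 libraries of a passage. Median log2 ratios of single libraries and the size rule used a prior count of 2, ratios with counting intervals used none, and neither has a test. Depth, the total count per library, is given in the opening. The fitting code was tested on simulated counts. Alternatives were DESeq2 1.42.0, limma 3.58.1 on log2 FPKM, other scaling, no filter, and leaving out each library.

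The members, lists and tests were chosen with earlier results of these data known. Given in full by rule were any members called for a compound or interaction (none), the 12 with the largest single-library ratios at CPM of at least 5, the 3 highest in FPKM, the Ifit3 and Ifit3b and the Oas1a and Oas1b pairs, and the 4 transcription factors. From other lists, genes were named from those with the smallest passage p, plus Ifnb1, Ifnar1, Ifnar2 and C1qa. Members named beyond this rule were chosen after their values were seen. Promoters are RefSeq windows of GRCm38.p6, the same assembly as mm10. Exon overlaps and coding sequences came from GENCODE M21. Some genes of the lists are not reported here.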

Additional observations from a re-analysis of the deposited data

Results flagged for a closer look

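The response of the 33 interferon-stimulated genes to α-amyrin had medians of opposite sign at the 2 passages. Their median log2 ratio of α-amyrin to vehicle was -0.20 at P6 and 0.51 at P1. Over members with a mean CPM of at least 5 it was -0.0085 at P6 and 0.40 at P1. The difference between passages was not tested for the list, and for single genes no interaction term passed the adjusted p of edgeR.

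The passage difference also had opposite signs by treatment. The median log2 ratio of P6 to P1 was -0.26 between the α-amyrin libraries and 0.29 between the vehicle libraries. Over members with a mean CPM of at least 5 the α-amyrin value was -0.10. This difference was not tested for the list. Every one of these medians compares single libraries. Both patterns come from the same libraries, those of α-amyrin and vehicle at P6 and P1. For each gene the second difference is the first rearranged, so it is no separate result.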

How the results depend on the processing

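For passage, 14 members were called, with 5095 of 16962 genes higher and 4939 lower, against 9 (9044 genes) by limma on log2(FPKM + 1) and 8 (9579 genes) with passage alone in the model. Leaving out 1 library gave 7 to 18. Where counts for the compounds rose, more genes in all were called too. For α-amyrin against vehicle the count of 0, with 5 genes called in all, became 2 with no low-count filter (464 of 29952 genes). It was also 2 without the P6 β-amyrin library (367 of 17323 genes) or without the P1 β-amyrin library (332 of 17376 genes). For β-amyrin against vehicle, with 1 gene in all, it became 4 with no filter (404 genes) and 1 by DESeq2 (115 of 14331 genes). It stayed at 0 without either α-amyrin library, and fits that leave 1 library in a compared group are left out here. For α-amyrin against β-amyrin, with 10 genes in all, it became 10 with no filter (484 genes), 1 by DESeq2 (122 of 14002 genes), and 0 to 11 without 1 library. For the passage by β-amyrin interaction, with 92 genes in all, it became 4 with no filter (285 genes) and 0 to 1 without 1 library, and for the other interactions it stayed at 0 to 0, with 4 of the 6 libraries left out in turn since the others leave a group empty. The cause was not tested. With members of mean CPM of at least 5 alone, median log2 ratios were -0.10 for P6 over P1 with α-amyrin, 0.34 for P6 over P1 with β-amyrin, 0.40 for α-amyrin over vehicle at P1, -0.34 for β-amyrin over vehicle at P1, 0.78 for α-amyrin over β-amyrin at P1 and -0.0085 for α-amyrin over vehicle at P6. By FPKM ratio, an alternative chosen after seeing the data, 2 members rather than 1 were higher with β-amyrin than with vehicle at P1. No result reversed in any alternative run. Of the 14 called members, 7 kept the call in all 12 alternatives, and the like share of all called genes was not taken. No paired analysis was possible because the labels give no replicate numbers to use as a block; the additive fit does compare the passages within each treatment, and its treatment term is what the model with passage alone leaves out. Low counts limit the weakest members: Oas3, Oas2 and Mx2 had 1, 2 and 2 reads in P1 β-amyrin.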

Other observations

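Interferon-inducible genes outside the list had a like order at P1. Of 57 such genes 46 were tested. All 46 had more CPM with α-amyrin than with β-amyrin at P1 (median log2 ratio 0.71), against 50.7% of all genes. Above vehicle at P1 were 43 of 46 with α-amyrin (49.3% of all genes were above). Below it were 37 of 46 with β-amyrin (50.2% of all genes were above). In edgeR none of the 46 was called for α-amyrin against β-amyrin (0.0590% of all genes were called). For passage 27 rose and 12 fell, against 30.0% of all genes that rose and 29.1% that fell. Parp14, an ADP-ribosyltransferase gene, had 26.8 CPM with α-amyrin, 18.7 CPM with β-amyrin and 38.2 CPM with vehicle at P6, and 8.46 CPM with α-amyrin, 3.14 CPM with β-amyrin and 7.02 CPM with vehicle at P1. Znfx1, which encodes a sensor of viral RNA, had 86.0 CPM with α-amyrin, 73.3 CPM with β-amyrin and 97.3 CPM with vehicle at P6, and 44.4 CPM with α-amyrin, 35.2 CPM with β-amyrin and 37.5 CPM with vehicle at P1. Both were higher in every P6 library than in every P1 library. These genes come from the same 6 libraries and were listed with earlier results known, so they are no independent support.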
